A study of Rattus norvegicus with 10 samples.

Results

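The genes of DNA replication and of mitosis were read across the livers of 10 rats. The list held 37 genes chosen by their known role, 10 of replication, 23 of mitosis and 4 that mark or control dividing cells. A gene was measured where a probe set of the array named it alone, and where several did, the one of highest mean across the arrays stood for it. By this rule 34 of the 37 were measured, out of 14217 genes in all. They were 9 replication genes, 21 mitosis genes and the 4 others. Rrm2 was named only by probe sets that also name another gene, Tpx2 and Nek2 were named by none, and these 3 are not analysed here.

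The animals were Harlan Sprague Dawley rats. The HMB group of 5 received 2-hydroxy-4-methoxybenzophenone (HMB or oxybenzone, which absorbs ultraviolet light in sunscreens) in dosed feed over 13 weeks at 10000 ppm, and the 5 controls received 0 ppm. Both groups ate the NTP-2000 diet and were housed 5 per cage, so that a cage and HMB cannot be told apart if each group was 1 cage. Sex, age and litter are not given in the sources used here. For HMB 1 the labels disagree, since its title and chemical are those of HMB and its dose reads 0 ppm. It was analysed as an HMB animal, and with it counted as a control no gene of the list was called either. In that fit only 30 of all 14217 genes were called, so that this count says little about the label. Animals are numbered by order of deposition, the numbers pair nothing, and 1 array was run per animal. All values are log2 signals after RMA, a normalization between arrays, so that a difference of 1 is a doubling. The 7 measured hepatocyte markers had control means from 8.04 for Tat to 14.61 for Alb, and none of them was called.

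A dividing cell first copies its DNA in S phase. The MCM proteins form the ring-shaped helicase that opens the double strand, PCNA is the sliding clamp that holds the polymerase on it, and thymidylate synthase and ribonucleotide reductase supply the nucleotides. In mitosis the kinase CDK1 with its A and B cyclins drives entry, Aurora and Polo-like kinases build the spindle, the spindle checkpoint delays chromosome separation, and the anaphase-promoting complex ends the phase by marking cyclins for destruction. Transcription factors of the E2F family switch on many replication genes, and the DREAM and MuvB complexes with FOXM1 time the mitosis genes. Hepatocytes of adult liver are largely quiescent and re-enter the cycle after loss of tissue or on mitogens. In whole liver RNA, fewer dividing cells and less RNA per dividing cell cannot be told apart.

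None of the 34 measured genes was called in HMB rats (limma, Benjamini-Hochberg adjusted p over all genes, lowest 0.0613 for Aurka), where 1.72% of the 14217 genes were, 0.76% higher and 0.957% lower. At an unadjusted p under 0.05 there were 5 of the 34, all with lower means in HMB, namely Aurka, Rrm1, Mcm4, Mcm7 and Pcna. These 5 were 14.7% of the list, beside 24.9% of all genes in both directions together. Of all genes 13.4% were lower at that p, near the share of the list. Another 11.5% were higher, where the list had 0. The log2 difference, HMB minus control, was above 0 in 17 and below 0 in 17, where 53.5% of all genes lay below 0. The median was -0.00 beside -0.02 over all genes, and after cyclic loess, a normalization that removes trends with signal level, it was -0.10 beside 0.01. The 95% interval of the difference lay within 2-fold in either direction for 33 of 34, the exception being Aurka. It lay within 1.41-fold for 26. The interval reached past 1.41-fold in the other 8, which were Mcm4, Tyms, Rrm1, Cdk1, Aurka, Cdkn3, Mad2l1 and Mki67.

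**Figure D1:**
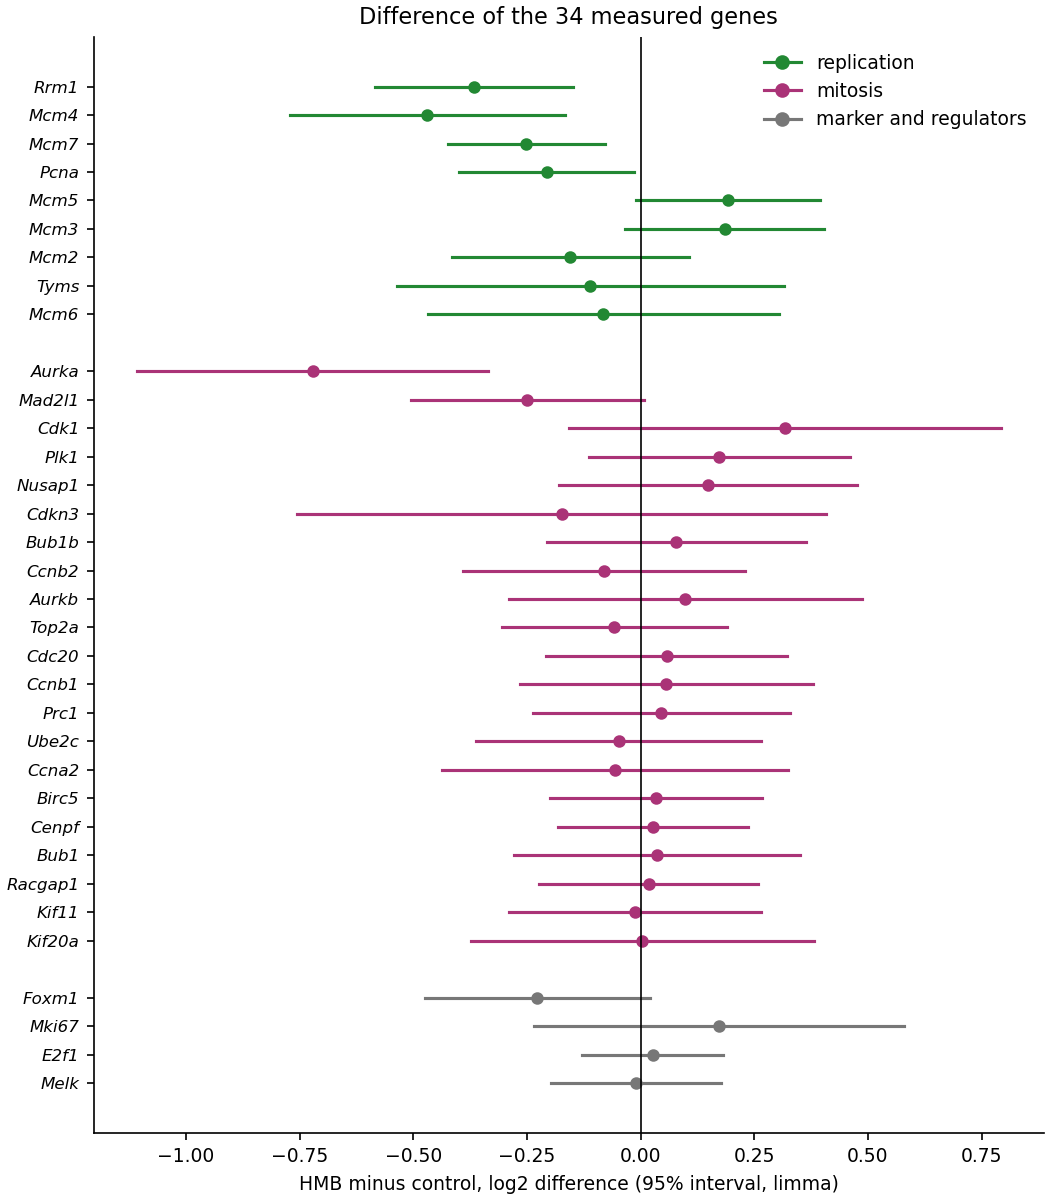
Log2 difference, HMB minus control, of each of the 34 measured genes with its 95% interval from limma (5 rats per group), grouped as replication, mitosis, and marker and regulators, and ordered by p within each. The intervals of Rrm1, Mcm4, Mcm7, Pcna and Aurka lie below 0, and all others cross it.

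Calls in this series moved with single animals. Leaving out control 1 gave 3 called members, lower in HMB, which were Aurka (log2 difference -0.87, limma adjusted p = 0.0178), Mcm4 (-0.58, adjusted p = 0.025) and Rrm1 (-0.41, adjusted p = 0.0407), while the share of all genes called grew to 7.13%. Leaving out HMB 3 gave Aurka alone (-0.84, adjusted p = 0.0432), with 1.1% of all genes called. Array weights gave Aurka and Rrm1, with 4.64% of all genes called. The count of members called was 0 in the 8 fits that each left out another animal. Of all 14217 genes, 353 were called without HMB 1 and at most 15 in the rest of these fits. A count of 0 members therefore says little there. Array measures differed between the groups as well. The signal of the spiked poly-A controls, minus that of the hybridisation controls, ran from -2.19 to -1.90 in controls. It was -1.92 and -1.96 in HMB 1 and 2, and -1.54, -1.78 and -1.47 in HMB 3, 4 and 5. The 3' minus 5' signal of GAPDH was 1.38 to 1.77 in controls, 1.31 and 1.38 in HMB 1 and 2, and 1.97, 2.09 and 1.90 in HMB 3 to 5. That of beta-actin was 3.255 to 3.641 in controls, 3.158 and 3.182 in HMB 1 and 2, and 3.616, 3.963 and 3.576 in HMB 3 to 5. By beta-actin, HMB 3 and 5 thus lay within the control range and HMB 4 above it. Genes also shifted with their level. The median difference of all genes was 0.11, 0.03, -0.12 and -0.07 in 4 level classes of equal size, from class 1 of lowest to class 4 of highest mean signal. After cyclic loess it was 0.02, 0.01, -0.01 and 0.00.

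Promoter sequences were read beside the values, since the classes are known for different control motifs. RefSeq promoter sequences of the rat assembly GRCr8 matched 27 of the 34 measured genes, with no entry used for Mcm4, Ccna2, Aurkb, Ube2c, Racgap1, Foxm1 and E2f1. The 250 bases before each annotated start were searched on both strands for the E2F motif (TTTCCCGC, TTTCGCGC, TTTGCCGC or TTTGGCGC), the cell cycle homology region or CHR (TTTGAA or TTCGAA), through which the DREAM and MuvB complexes bind mitosis genes, and the CCAAT box (CCAAT). An E2F match was found in 5 of 8 replication promoters (62.5%), 1 of 17 mitosis promoters (5.88%) and 1.73% of all 33469 promoters. A CHR match was found in 3 of 8 replication promoters, 8 of 17 mitosis promoters (47.1%) and 17.4% of all. CCAAT was found in 6 of 8, 13 of 17 (76.5%) and 34% respectively. In other genes of the same pathways, E2F matches stood in 6 of 38 replication promoters and 1 of 36 mitosis promoters, and CHR matches in 3 of 38 and 21 of 36 (58.3%). A match is a run of letters and not a measured binding site. The 4 upstream sequences below are those of Mcm7, the member whose groups did not overlap, Rrm1, the replication member with the lowest p, Aurka, the mitosis member with the lowest p, and Cdk1, the mitosis member with the largest difference above 0. Mcm7 and Cdk1 held matches to all 3 motifs. They lie at chr12:22163179-22163428 (minus strand), chr1:166235654-166235903 (plus strand), chr3:181560770-181561019 (minus strand) and chr20:19265043-19265292 (plus strand) of GRCr8, and each is written 5' to 3' on the gene's strand with motif matches in capitals. In Mcm7 an E2F and a CCAAT match share letters.
Mcm7: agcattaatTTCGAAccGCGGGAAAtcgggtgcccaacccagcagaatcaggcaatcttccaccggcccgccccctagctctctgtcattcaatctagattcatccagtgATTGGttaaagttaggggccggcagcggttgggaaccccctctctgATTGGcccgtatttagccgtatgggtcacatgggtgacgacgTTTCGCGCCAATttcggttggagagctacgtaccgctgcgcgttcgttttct
Rrm1: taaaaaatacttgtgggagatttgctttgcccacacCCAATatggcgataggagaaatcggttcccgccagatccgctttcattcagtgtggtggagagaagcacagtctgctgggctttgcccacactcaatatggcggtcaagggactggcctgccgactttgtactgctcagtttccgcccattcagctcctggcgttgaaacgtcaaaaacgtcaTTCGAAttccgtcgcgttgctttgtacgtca
Aurka: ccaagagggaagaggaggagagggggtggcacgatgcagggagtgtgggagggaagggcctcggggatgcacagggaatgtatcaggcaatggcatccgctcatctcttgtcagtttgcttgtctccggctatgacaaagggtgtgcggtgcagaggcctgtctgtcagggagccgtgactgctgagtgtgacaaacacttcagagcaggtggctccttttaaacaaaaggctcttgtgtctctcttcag
Cdk1: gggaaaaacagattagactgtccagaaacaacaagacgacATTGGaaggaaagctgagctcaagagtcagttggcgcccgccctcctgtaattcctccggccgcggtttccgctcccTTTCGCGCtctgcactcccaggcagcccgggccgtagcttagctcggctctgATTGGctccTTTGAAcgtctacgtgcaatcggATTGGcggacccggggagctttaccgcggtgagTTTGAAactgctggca
Mcm7 held 2 E2F matches, 3 CCAAT matches and 1 CHR match. Cdk1 held 1 E2F, 3 CCAAT and 2 CHR matches, Rrm1 held 1 CHR and 1 CCAAT match, and the Aurka window held none of these letters. Whether the annotated start of Aurka is the start used in liver was not examined.

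Of the 9 replication genes, 7 had a difference below 0 and 2 above, without a call. The median was -0.15, or -0.16 after cyclic loess. Without HMB 3, 4 and 5, the animals whose poly-A and GAPDH measures stood apart, it was 0.05, in a fit left with HMB 1 and HMB 2. The median of the list thus changed sign there. Mcm4, Mcm7, Rrm1 and Pcna stayed below 0 in every alternative that fitted them, with highest differences of -0.29, -0.12, -0.22 and -0.04. Mcm4, Mcm7, Rrm1 and Pcna were the 4 members in level classes 3 and 4, and each had a lower mean and an unadjusted p under 0.05. Mcm4, Mcm7 and Rrm1 stood in class 3, where 24.8% of all genes were lower at that p, and Pcna in class 4, where 17% were. The other 5 lay in class 2, with differences from -0.15 to 0.19.

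Mcm7, a subunit of the helicase, had a signal of 7.71, 7.65, 7.97, 7.61 and 7.80 in controls 1 to 5 and of 7.48, 7.48, 7.59, 7.42 and 7.50 in HMB 1 to 5. Every HMB animal lay below every control, by a narrow margin between HMB 3 and control 4. The difference was -0.25 ± 0.08 (SE, n = 5 per group, limma adjusted p = 0.0945). It was -0.13 after cyclic loess, where the groups overlapped. It was the only one of the 34 measured genes without overlap. Over all genes 6.12% showed no overlap, 3.48% with HMB lower, so that 1 of 34 is near the background. Mcm4 was at 5.96, 6.34, 6.36, 6.49 and 6.77 in controls and at 6.15, 6.04, 5.82, 5.66 and 5.92 in HMB. Control 1 lay among the HMB animals and the other controls above them all. The difference was -0.47 ± 0.14 (adjusted p = 0.0856), the largest among the replication genes. The remaining helicase subunits went different ways. Mcm5 was at 5.07, 4.83, 4.77, 4.69 and 4.88 in controls and at 4.89, 5.16, 5.23, 4.93 and 4.99 in HMB, each HMB animal being above the control mean and control 1 above 3 of them (difference 0.19 ± 0.09, adjusted p = 0.221). Mcm3 differed by 0.18, Mcm2 by -0.15 and Mcm6 by -0.08, with adjusted p from 0.269 to 0.798. The 6 subunits work as a single ring, and their messages did not share a direction here, 4 lying below 0 and 2 above.

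**Figure D2:**
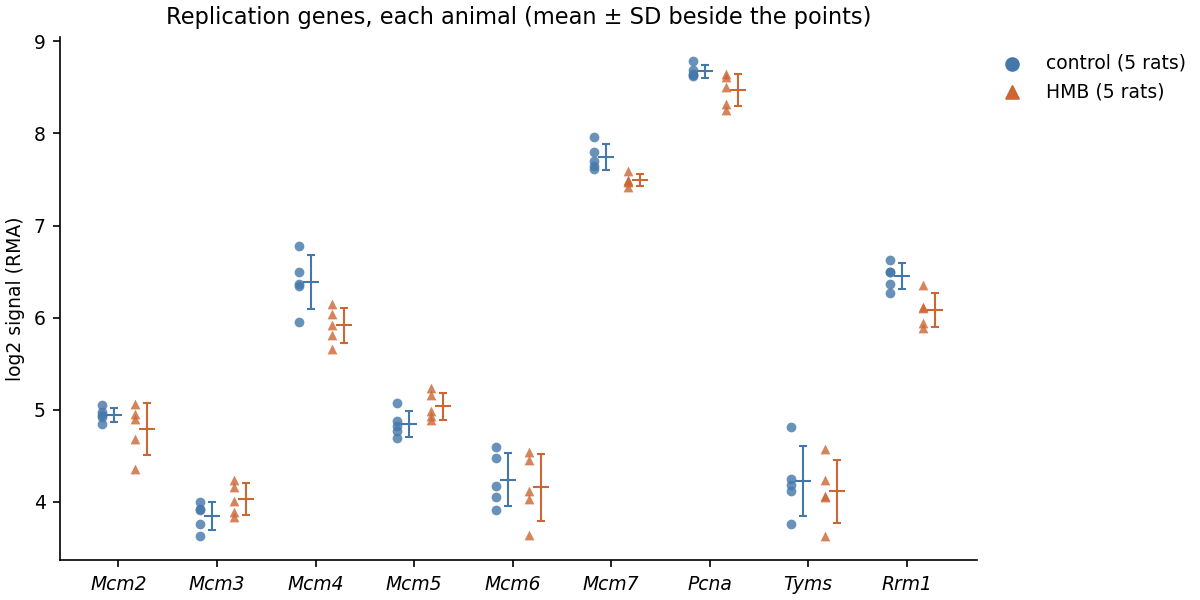
Log2 RMA signal of the 9 replication genes in each of 5 control rats (circles) and 5 HMB rats (triangles), with mean and SD beside the points. The Mcm7 triangles lie below all its circles, and in the other 8 genes the groups overlap.

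Rrm1 encodes the large subunit of ribonucleotide reductase, which makes deoxyribonucleotides. Its signal was 6.27, 6.63, 6.50, 6.36 and 6.49 in controls and 6.11, 6.12, 5.95, 5.89 and 6.36 in HMB. HMB 5 lay among the lower controls, and the other 4 HMB animals lay below every control. The difference was -0.37 ± 0.10 (SE, n = 5 per group, limma adjusted p = 0.0729). After cyclic loess it was -0.26, with an adjusted p of 0.175. Pcna was at 8.62, 8.63, 8.79, 8.65 and 8.68 in controls and at 8.65, 8.61, 8.25, 8.32 and 8.50 in HMB. HMB 1 stood among the controls and HMB 2 just under the lowest of them. HMB 3, 4 and 5 lay further below all controls, the same animals whose poly-A and GAPDH measures stood apart. The part of those measures in the Pcna values was not tested. The difference was -0.21 ± 0.09 (adjusted p = 0.174), and after cyclic loess it was -0.11 (adjusted p = 0.507). Tyms, thymidylate synthase, ranged from 3.75 to 4.81 in controls and from 3.62 to 4.58 in HMB (difference -0.11, adjusted p = 0.749).

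Mitosis genes were centred near no difference. Of the 21, 13 had a difference above 0 and 8 below, with a median of 0.03 that became -0.07 after cyclic loess and -0.07 after quantile normalization, so that no direction can be given. Aurka was the 1 mitosis gene of the 21 with an unadjusted p under 0.05. All 21 had mean signals from 2.49 to 5.48, in level classes 1 and 2, and no detection call was used here to say which were above background.

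The Aurora kinases, which act on centrosomes and spindle poles (Aurora A) and on the chromosomal passenger complex (Aurora B), were read side by side, and the gap between them was not tested. Aurka was at 4.50, 5.33, 5.14, 5.00 and 5.43 in controls and at 4.20, 4.16, 4.83, 4.41 and 4.19 in HMB. Controls 2 to 5 lay above every HMB animal, and control 1 lay below HMB 3. The difference was -0.72 ± 0.18 (SE, n = 5 per group, limma adjusted p = 0.0613), or 0.607-fold. It was -0.75 after cyclic loess (adjusted p = 0.083). Over the 23 alternatives in which it was fitted its adjusted p ran from 0.0178 to 0.281 and its difference stayed below 0. Aurkb was at 2.95, 2.63, 3.13, 2.79 and 2.74 in controls and at 3.21, 2.44, 3.52, 2.73 and 2.83 in HMB, with HMB 2 lowest and HMB 3 highest of all 10 (difference 0.10 ± 0.18, adjusted p = 0.757). After cyclic loess its difference was -0.00, and over the alternatives it ran from -0.13 to 0.22. Plk1, the Polo-like kinase, was at 4.77, 4.24, 4.14, 4.08 and 4.37 in controls and at 4.56, 4.51, 4.43, 4.24 and 4.72 in HMB. Control 1 was the highest of all, and HMB 1, 2, 3 and 5 lay above the other 4 controls (difference 0.17 ± 0.13, adjusted p = 0.423).

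Cdk1 and most of its partners, Ccnb1 being the exception, spread more widely within the HMB group than within controls. Cdk1 was at 4.61, 4.92, 4.52, 4.28 and 4.56 in controls and at 5.00, 4.21, 5.29, 4.50 and 5.47 in HMB. HMB 1, 3 and 5 lay above all controls, HMB 2 lay below all of them, and HMB 4 lay among them. The difference was 0.32 ± 0.22 (SE, n = 5 per group, limma adjusted p = 0.375). The SD was 0.532 in HMB against 0.226 in controls. Ccnb2, a B cyclin, was at 4.33, 4.25, 4.33, 4.46 and 4.32 in controls and at 4.29, 4.01, 4.37, 3.85 and 4.76 in HMB, with HMB 5 above and HMB 2 and 4 below all controls (difference -0.08 ± 0.14, adjusted p = 0.749). Cdkn3, a phosphatase that acts on CDK1 and CDK2, was at 4.76, 5.05, 5.00, 4.76 and 5.63 in controls and at 5.06, 3.96, 5.13, 4.57 and 5.60 in HMB, where HMB 2 and 4 were again the lowest (difference -0.17 ± 0.27, adjusted p = 0.708). Ccna2 and Ccnb1, the other 2 cyclins, differed by -0.06 and 0.06, with adjusted p of 0.859 and 0.834.

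Spindle checkpoint genes and those of the anaphase-promoting complex gave small differences. Mad2l1, which encodes the checkpoint protein MAD2, was at 4.23, 4.70, 4.55, 4.43 and 4.49 in controls and at 4.58, 4.23, 4.02, 4.29 and 4.04 in HMB. HMB 3 and 5 lay below all controls, HMB 2 level with the lowest, and HMB 1 above 4 of them (difference -0.25 ± 0.12, limma adjusted p = 0.211). Its other probe sets, of lower signal, differed by -0.03 and 0.16. Bub1b, which encodes the checkpoint kinase-like protein BUBR1, was at 2.65, 2.68, 2.32, 1.98 and 2.60 in controls and at 2.52, 2.47, 2.67, 2.34 and 2.63 in HMB, within the control range throughout (difference 0.08 ± 0.13, adjusted p = 0.735). Bub1 differed by 0.04 and Ube2c, the ubiquitin-conjugating enzyme of the complex, by -0.05. Cdc20, its activator in mitosis, differed by 0.06 (adjusted p = 0.793). It had 4 further probe sets, with differences from -0.08 to 0.37, and the highest of these had an adjusted p of 0.1 over all 31042 probe sets. In all, 8 members had 12 further probe sets, of which 0 were called by limma, where 1.7% of all probe sets were, and 2, both of Cdc20, had an unadjusted p under 0.05 (24.1% of all probe sets).

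Genes of chromosomes, spindle and cell separation were as little different between the group means. Nusap1, a microtubule-binding protein of the spindle, was at 5.67, 5.29, 5.09, 5.26 and 5.72 in controls and at 5.44, 5.31, 5.61, 5.41 and 5.99 in HMB, with HMB 5 above all controls (difference 0.15 ± 0.15, limma adjusted p = 0.552). Top2a, the topoisomerase that untangles sister chromatids, was at 4.35, 4.26, 4.61, 4.51 and 4.41 in controls and at 4.28, 4.38, 4.58, 4.02 and 4.59 in HMB, with HMB 4 below all controls and the others within their range (difference -0.06 ± 0.11, adjusted p = 0.776). The motor proteins Kif11 and Kif20a differed by -0.01 and 0.00, and the midzone and cytokinesis proteins Prc1 and Racgap1 by 0.05 and 0.02. Birc5 (survivin, of the chromosomal passenger complex) and Cenpf, a kinetochore protein, differed by 0.03 each. The adjusted p of these 6 ran from 0.849 to 0.992.

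**Figure D3:**
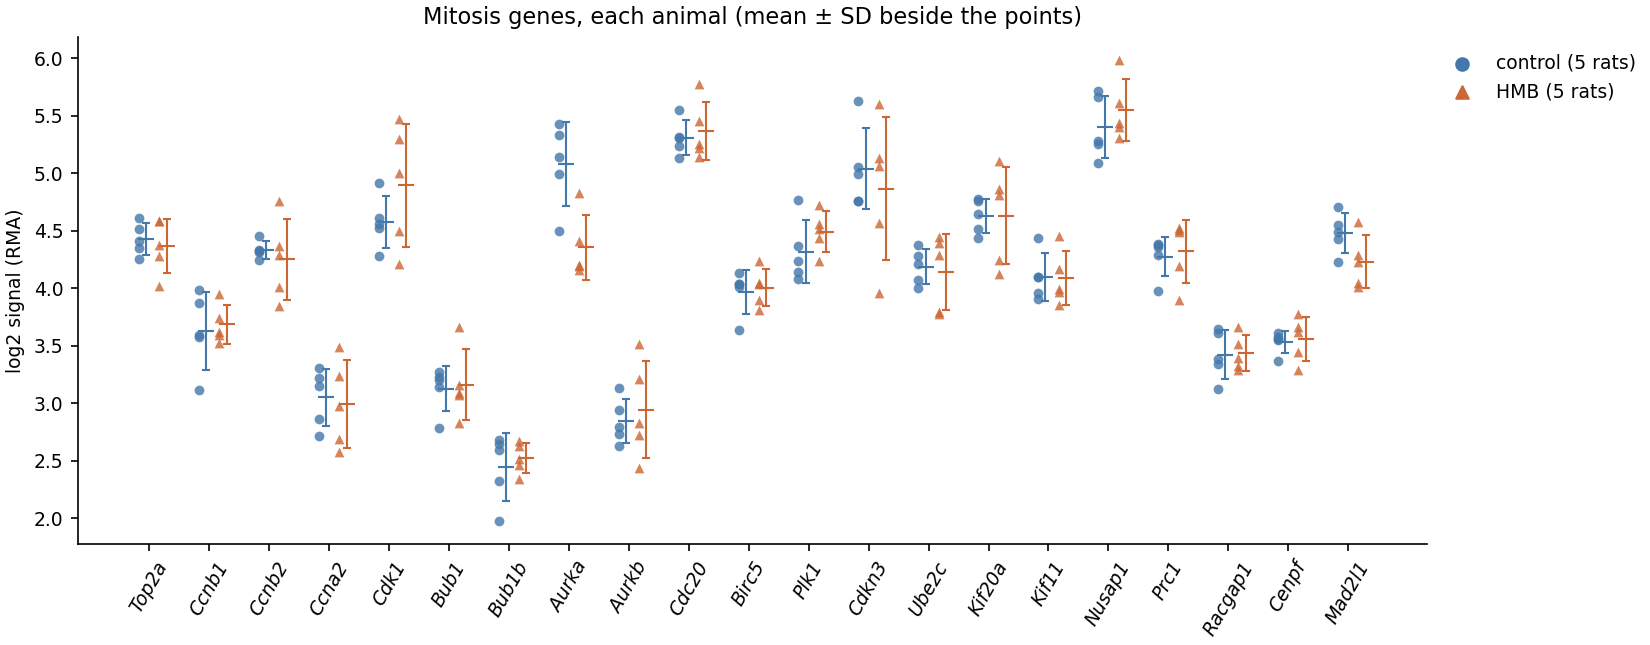
Log2 RMA signal of the 21 mitosis genes in each of 5 control rats (circles) and 5 HMB rats (triangles), with mean and SD beside the points. The groups overlap in every gene, and in Cdk1, Ccnb2, Aurkb and Kif20a the HMB points spread wider than the control points.

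Mki67, the proliferation marker Ki-67, was at 3.69, 3.93, 3.51, 3.74 and 3.66 in controls and at 3.85, 3.72, 4.47, 3.22 and 4.14 in HMB. HMB 3 and 5 lay above all controls and HMB 4 below them. The difference was 0.17 ± 0.19 (SE, n = 5 per group, limma adjusted p = 0.58, 95% interval from -0.23 to 0.58). Foxm1, the transcription factor of mitosis genes, was at 4.15, 4.05, 4.35, 4.11 and 4.42 in controls and at 4.08, 3.87, 3.92, 3.76 and 4.32 in HMB. HMB 2, 3 and 4 lay below all controls, and HMB 1 and 5 within their range (difference -0.23 ± 0.11, adjusted p = 0.232). A second probe set of Foxm1 differed by -0.00. E2f1, the factor of replication genes, was at 4.04, 4.15, 4.13, 3.99 and 4.19 in controls and at 3.98, 4.15, 4.24, 4.14 and 4.12 in HMB, with the groups intermixed (difference 0.03 ± 0.07, adjusted p = 0.84). Melk, a kinase of dividing cells, was at 2.70, 2.55, 2.45, 2.38 and 2.60 in controls and at 2.67, 2.54, 2.62, 2.35 and 2.45 in HMB (difference -0.01 ± 0.09, adjusted p = 0.952). These 2 were the least variable of the 4.

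Replication was set against mitosis in each animal by the median deviation of a class from the control means of its genes. For replication the 5 controls lay between -0.07 and 0.05, and HMB 1 to 5 were at 0.01, -0.13, -0.27, -0.35 and -0.04. For mitosis the controls lay between -0.05 and 0.09, and HMB 1 to 5 were at 0.07, -0.13, 0.11, -0.19 and 0.27. The classes thus went apart in HMB 3 and HMB 5 and were both low in HMB 2 and HMB 4. Mitosis minus replication was at most 0.06 in controls and was 0.07, -0.01, 0.38, 0.16 and 0.31 in HMB 1 to 5. After cyclic loess it was at most 0.12 in controls and 0.02, -0.01, 0.31, -0.01 and 0.19 in HMB 1 to 5, so that HMB 3 and HMB 5 stood above the controls on both scales. HMB 4, and HMB 1 by a narrow margin, did so on the deposited scale alone. HMB 3, 4 and 5 are also the animals with the high poly-A and GAPDH measures, and 4 of 9 replication genes but none of the 21 mitosis genes lay in level classes 3 and 4, where the median of all genes was below 0 in HMB. The part of the level trend and of these array measures in the gap between the classes was not tested. No test was made on these class medians, which describe genes listed with earlier results known.

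**Figure D4:**
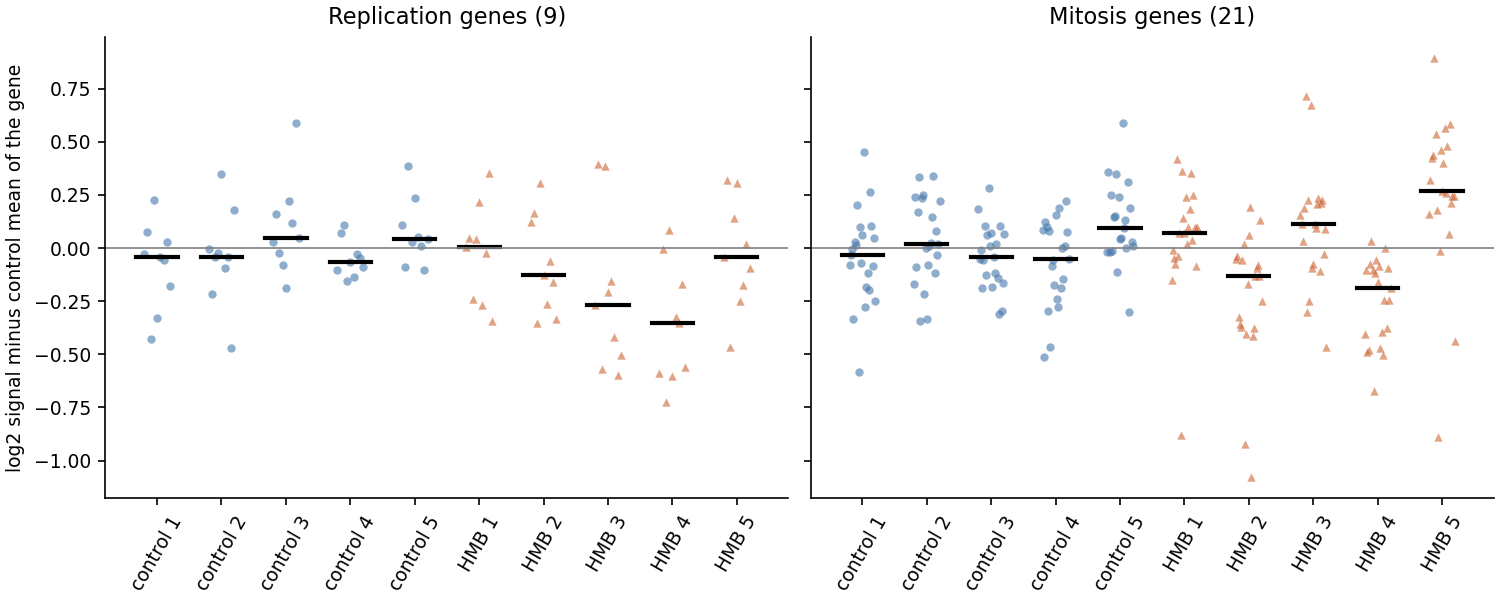
Log2 signal minus the control mean of the same gene, for 9 replication genes (left) and 21 mitosis genes (right) in each animal, with the median as a black bar (controls circles, HMB triangles). The mitosis medians of the HMB animals run from -0.19 in HMB 4 to 0.27 in HMB 5, wider than those of the controls.

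Within the HMB group, the same animals were at the top and at the bottom of most mitosis genes. HMB 5 was the highest of the 5 HMB animals in 15 of 21 mitosis genes (71.4%), where it was highest in 19.9% of all genes. HMB 4 was the lowest in 11 and HMB 2 in 8, so that 1 or the other was lowest in 19 of 21 (90.5%), beside 38.6% of all genes. After cyclic loess these counts were again 15 and 19. HMB 5 lay above all controls in 12 of 21 and HMB 4 below all controls in 10 of 21, beside 23.4% and 26.7% of all genes. Kif20a, a kinesin of cell separation named here after its values were seen, was at 4.81, 4.25, 4.87, 4.12 and 5.11 in HMB 1 to 5 and between 4.44 and 4.78 in controls. The SD within HMB exceeded that within controls in 14 of 21 mitosis genes, 6 of 9 replication genes and 51.5% of all genes, and the median SD of mitosis genes was 0.268 in HMB and 0.198 in controls. In controls the order was looser in these 21 genes, control 5 being highest in 7 of 21 and control 1 and control 4 lowest in 6 each. The replication genes did not follow HMB 5, which was highest in 2 of 9, while HMB 4 was lowest in 6 of 9. These counts describe 10 animals whose genes are not independent of each other, and the order of animals was noticed in these values.

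HMB 5 was also most often highest, and HMB 2 or 4 lowest, in mitosis genes outside the list. Of 49 further mitosis genes (kinetochore, spindle, condensin and cytokinesis genes), 41 were measured. HMB 5 was the highest HMB animal in 18 of these (43.9%), HMB 2 or HMB 4 the lowest in 28 (68.3%), and HMB 5 lay above all controls in 20. In controls, control 5 was highest in 17 of 41 (41.5%), near the share of HMB 5. In these genes a single leading animal was thus not particular to the HMB group. In 42 further replication genes HMB 5 was highest in 12 and HMB 2 or HMB 4 lowest in 18 (42.9%), nearer to all genes. The poly-A measure was likewise highest in HMB 5, followed by HMB 3, and lowest in HMB 2, with HMB 4 in the middle. Its part in the order of the mitosis genes was not tested.

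**Figure D5:**
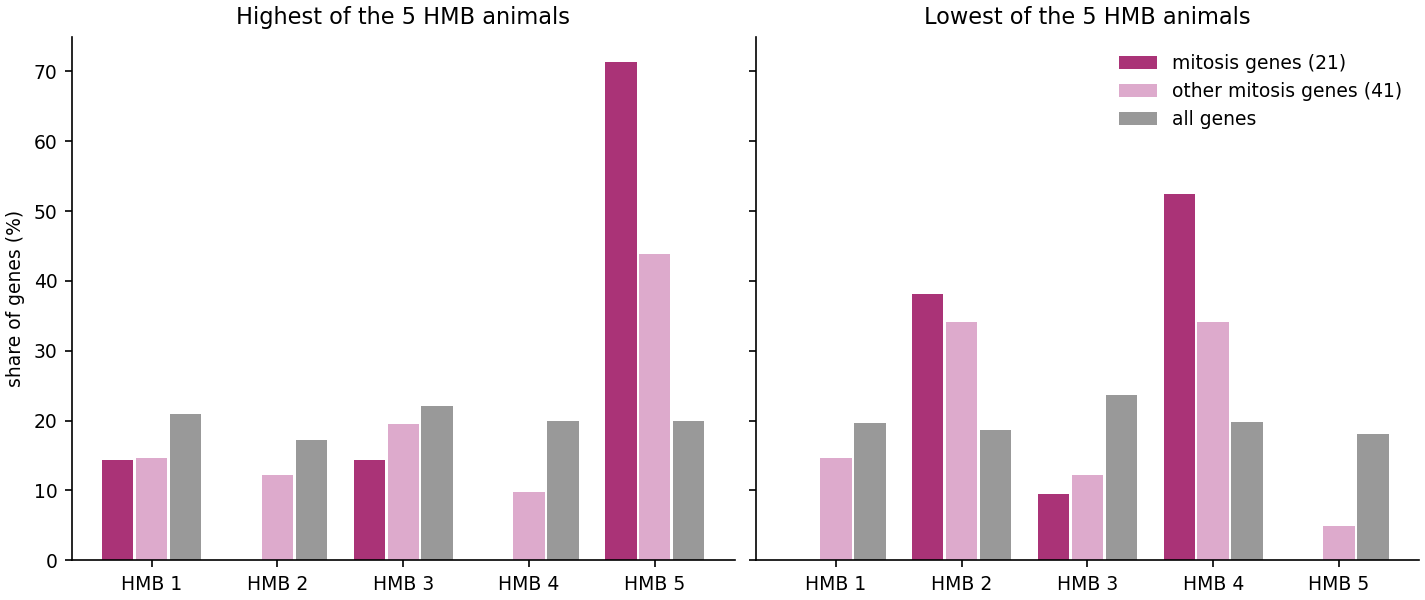
Share of genes (in %) in which each HMB animal was the highest (left) or the lowest (right) of the 5, for the 21 mitosis genes, 41 other mitosis genes and all 14217 genes. HMB 5 is highest in 71.4% and 43.9% of the mitosis sets against 19.9% of all genes, and HMB 2 and HMB 4 share most of the lowest values.

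Markers of other cells that divide or sit in liver were read beside these orders. Of 5 measured erythroid markers, all 5 were above 0 in HMB and 0 were called (limma), where 1.72% of all genes were. At an unadjusted p under 0.05 there were 3, where 11.5% of all genes were higher at that p. Slc4a1, the red cell anion exchanger, was at 0.39 (limma adjusted p = 0.0728). Slc4a1 and Epb42 lay in level class 1, where the median of all genes was 0.11, Alas2 and Ahsp in class 2 and Hbb in class 4. The 5 erythroid markers had a median difference of 0.30, and of 0.29 after cyclic loess. Their summed unlogged signal ran from 944 to 2359 in controls and from 1445 to 2256 in HMB, and the median deviation of HMB 1 to 5 was 0.09, 0.27, 0.58, 0.42 and 0.38. Lymphocyte markers were above 0 in 7 of 10 with 0 called. At an unadjusted p under 0.05 there were 3, all higher and in level class 1, namely Cd3d, Cd3e and Nkg7. The lymphocyte sum ran from 475 to 1205 in controls and from 549 to 1126 in HMB, highest in HMB 3. Its largest part came from Cd74, with a mean log2 signal of 9.08, where the next highest, Lck, had 5.50. Macrophage markers were above 0 in 3 of 8, with a sum of 1046 to 3684 in controls and 1671 to 2788 in HMB, and HMB 3 was the highest HMB animal in all 8. Endothelial markers were below 0 in 6 of 6 and stellate markers in 6 of 7, cholangiocyte markers above 0 in 3 of 5 and neutrophil markers in 3 of 4, with 0 called in each. RMA values have no true 0, and the lowest marker value was 2.14. In the endothelial and stellate lists HMB 5 had the highest median deviation of the HMB animals (0.07 and 0.01) and HMB 4 the lowest (-0.49 and -0.28), as in the mitosis genes. Control 5 was the lowest control in both (-0.67 and -0.35), while it was the highest in the mitosis genes (0.09). The other 6 lists did not join HMB 5 as highest with HMB 2 or HMB 4 as lowest. The part of these cells in the mitosis values was not tested.

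Among the 135 further genes of the cycle that were measured, limma called 3 (2.22%), near the 1.72% of all genes. In the 42 replication genes 1 was called, Pola2, a subunit of the DNA polymerase alpha-primase complex, which fell by 0.39 on the log2 scale with a standard error of 0.09 and a limma adjusted p of 0.047. It was at 5.00, 5.01, 4.92, 5.03 and 4.76 in controls and at 4.80, 4.43, 4.44, 4.53 and 4.55 in HMB, with HMB 1 just above control 5 and the other HMB animals below all controls. The call held in 9 of 23 alternatives (adjusted p from 0.0324 to 0.396). It was lost when any of controls 2 to 5 or HMB 2 to 5 was left out, or HMB 3 to 5 together. It was lost as well after cyclic loess or quantile normalization, with a trended robust variance model and with the poly-A covariate. Tk1, thymidine kinase, and Rfc1, of the clamp loader, differed by 0.21 and -0.22 without a call, and the list's median was -0.07. In the 41 mitosis genes 0 were called by limma, 11 had an unadjusted p under 0.05 (26.8%, beside 24.9% of all genes), and the median was 0.02. Kif2c, a kinesin that removes tubulin from kinetochore microtubules, was at 0.52 (adjusted p = 0.0567), Kif18b at 0.29 and Aspm, a spindle pole protein, at -0.47. In the 17 transcription factors and pocket proteins 0 were called. Below 0 were 14, where 53.5% of all genes were, and the median was -0.12. At an unadjusted p under 0.05 there were 3 (17.6%), all lower, where 13.4% of all genes were lower. They were Rb1, the retinoblastoma protein, at -0.42 (adjusted p = 0.0643), Mybl1 at -0.95 (adjusted p = 0.0909) and Rbl1 at -0.20.

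Upstream of S phase, 1 of 18 genes of G1 cyclins, their kinases and inhibitors was called, where 1.72% of all genes were. Ccnd1, cyclin D1, was at 8.31, 9.07, 9.27, 8.52 and 9.33 in controls and at 7.98, 7.32, 7.95, 7.77 and 7.88 in HMB, and fell by 1.12 (log2) with a standard error of 0.20 and a limma adjusted p of 0.0296. All HMB animals lay below all controls. The call held in 13 of 24 alternatives (adjusted p from 0.0136 to 0.281). It was lost when any of controls 2 to 5 or HMB 2, 4 or 5 was left out, or HMB 3 to 5 together. It was lost as well with the poly-A covariate, after quantile normalization (limma adjusted p = 0.0502) and with HMB 1 counted as a control (limma adjusted p = 0.0663). The Ccnd1 differences ran from -1.43 to -1.01 throughout. Ccne1, cyclin E1, differed by -0.16 (adjusted p = 0.29), Cdk6 by 0.44 (adjusted p = 0.0719), and Cdkn1a, the inhibitor p21, by -0.29 (adjusted p = 0.415), with HMB 5 at 9.17 above all controls and the other 4 HMB animals between 7.95 and 8.44. In 17 genes of the anaphase-promoting complex and SCF ubiquitin ligases 1 was called. Fbxw7, the SCF receptor that marks cyclin E for destruction, fell by 0.44 (log2) with a standard error of 0.09 and an adjusted p of 0.0414, from between 6.69 and 7.13 in controls to between 6.44 and 6.62 in HMB. That call held in 9 of 24 alternatives (adjusted p from 0.0146 to 0.354). It was lost when any of controls 2 to 5 or HMB 2 to 5 was left out, or HMB 3 to 5 together. It was lost as well after cyclic loess or quantile normalization, with the poly-A covariate and with HMB 1 counted as a control (limma adjusted p = 0.0785). Other choices of probe set also lost it, with a limma adjusted p of 0.0703 for the mean of all and 0.13 for that of largest SD. Cul1 and Fbxo5 of that list differed by -0.17 and 0.21 without a call.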

How the data were processed

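Liver RNA of 10 rats was hybridised to Affymetrix rat expression arrays with a biotin label. The authors deposited log2 signals of 31099 probe sets made with RMA, a tool named without version per the submitters' processing notes. No raw intensities or detection calls were used here, so depth cannot be stated and the number of arrays limits precision. The 57 Affymetrix control probe sets gave the array measures (24 for poly-A, 18 for hybridisation). Of the other 31042, 20826 named 1 gene, 436 several and 9780 none. Symbols were updated by gene identifier to RefSeq (GRCr8, 20758 matched), giving 14217 genes.

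Tests used limma 3.58.1 in R 4.3.3 (lmFit, eBayes, 8 residual and 4.04 prior degrees of freedom), HMB minus control, with Benjamini-Hochberg adjustment over all genes or all probe sets and a threshold of 0.05. All genes entered the fit. The script was tested on simulated data. The members and gene lists were chosen with earlier results of these data known. Named were called members, the members of lowest p in each class (5 of replication, 10 of mitosis, 4 others), up to 3 genes of lowest p per further list, and Ccnd1, Ccne1, Cdkn1a and Mki67. No label says how cages were assigned, and the animals were treated as independent. Alternatives were 3 normalizations, 2 filters, 2 variance models, 2 choices of probe set, left-out animals, the dose label of HMB 1, a poly-A covariate and an adjusted p of 0.01. Figures used matplotlib 3.10.9 in Python 3.11.15.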

Additional observations from a re-analysis of the deposited data

Results flagged for a closer look

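In 74 groups of 5 values (34 genes in each group of animals, and the 3 class medians), the extreme value was set against its nearest neighbour. In 5 of them the gap exceeded 0.71 of the whole range, and chance alone gives about 1 in 20. Bub1 was at 2.79 in control 2, with the other controls from 3.14 to 3.28. Birc5 was at 3.64 in control 2, with the others from 4.02 to 4.13. Prc1 was at 3.98 in control 5, with the others from 4.29 to 4.38. Cenpf was at 3.37 in control 3, with the others from 3.55 to 3.61. The median deviation of Mki67, Foxm1, E2f1 and Melk was -0.32 in HMB 4, with the other HMB animals from 0.01 to 0.11. None of these 4 genes was called in the comparison of HMB with control.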

How the results depend on the processing

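No paired analysis was possible because the replicate numbers follow the order of deposition and pair no animals. The number of members called was 0 in the alternatives run, with these exceptions. It was 2 with array weights, ran from 0 to 3 over the fits that left out 1 animal, and was 1 with cyclic loess and control 1 left out together, a fit chosen after the data were seen. The number of all genes changed by HMB was 244, and it was 82 after cyclic loess, 62 after quantile normalization, 156 without the lower 50% of mean signals, 659 with array weights, 30 with HMB 1 counted as a control and 704 without HMB 1 and 2. It ran from 0 to 1014 when 1 animal was left out, with 1014 without control 1, 353 without HMB 1, 157 without HMB 3, 15 without control 4, 1 each without HMB 4 and HMB 5, and 0 each without control 2, 3 or 5 or HMB 2 (limma, 2772, 2910, 3010 and 3434 genes at an unadjusted p under 0.05). It was 0 without HMB 3 to 5 (limma, 1612 genes at an unadjusted p under 0.05), with the poly-A covariate (limma, 1914) and at an adjusted p of 0.01 (limma, 3538). The median difference of the replication genes was -0.15, and it was -0.31 over the 4 left without the lower 50% of mean signals and 0.0455 without HMB 3 to 5. When 1 animal was left out it ran from -0.23 to -0.10, and that of the mitosis genes from -0.04 to 0.08. No mitosis gene remained in the stricter filter, which gave no value. Of 779 single values of members under other settings, 108 changed sign, in 24 members, and 0 calls were reversed. Not all of the 779 could change sign. The stricter adjusted p, the 2 filters and the trended robust variance model leave a difference as it was. The 2 choices of probe set can alter it only in the 8 members with more than 1 probe set. The 5 members with an unadjusted p under 0.05 kept their sign in all settings in which they were fitted.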

Other observations

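The 5 further lists of cycle genes held 135 measured genes, of which 3 were called (2.22%, beside 1.72% of all genes) and 8 showed no overlap of the groups (5.93%, beside 6.12% of all genes). These 8 are named because of their values. HMB was higher in Tk1, Cenpe, a kinetochore motor, and Kif18b, and lower in Rfc1, Rfc5, Rb1, Ccnd1 and Fbxw7. Cenpe and Kif18b had low mean signals of 2.71 and 2.82, in level class 1, where the median difference of all genes was 0.11. Tk1, Rfc5 and Rb1 lay in class 3 and Rfc1 and Ccnd1 in class 4, where that median was -0.12 and -0.07. Tk1 is a target of E2F factors and was at 6.60, 6.39, 6.45, 6.55 and 6.41 in controls and at 6.66, 6.69, 6.69, 6.62 and 6.82 in HMB (limma adjusted p = 0.103).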
